A study of Mus musculus with 18 samples.

Results

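Genes of the cytosolic ribosomal proteins were followed in muscle (quadriceps) and fat (white adipose tissue) of obese mice on different prednisone regimens. Transcript abundances in TPM, which scales transcript abundances by length so that every library has the same total, were summed over each gene symbol. A gene was a member if its symbol began with Rps or Rpl and a digit, or was Rplp0, Rplp1, Rplp2 or Rpsa, if it was not an S6 kinase or a pseudogene named with -ps, and if it reached 5 TPM in 3 or more libraries of one tissue. By this rule 88 of the 33641 genes in the table were members: 36 of the small subunit by name, 51 of the large subunit by name, and Rps19bp1, which meets the rule by its name although it encodes a protein that binds RPS19. The threshold was met by 87 members in muscle, 86 in adipose tissue and 85 in both, and 4 of the 92 symbols of this form stayed below it in both tissues (Rpl10l, Rpl39l, Rpl6l and Rps3a3). Closest to it were Rps27rt inside, at 38.2, 16.6 and 12.9 TPM in its 3 highest muscle libraries, and Rps3a3 outside, at 5.62, 4.88 and 4.69 TPM in its 3 highest adipose libraries. Genes of mitochondrial ribosomal proteins carry other names and are not among them. Of the members, Rps4l and Rpl37rt are annotated as transcribed processed pseudogenes and Rps12l1 and Rps3a2 as processed pseudogenes, so that not every member is known to make a protein.

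RNA was sequenced from male wild-type DBA/2J mice, an inbred strain, for which the labels give an age of about 20 weeks. The mice were kept on a high-fat diet for 12 weeks before the treatment and through all 12 weeks of it. If these spans hold, that age cannot be the age at which tissue was taken. One group received prednisone, a synthetic glucocorticoid, at 1 mg/kg into the peritoneum once weekly, another received the same dose every day, and the third received vehicle every day. Quadriceps and white adipose tissue were taken from each mouse 24 hours after the last injection, with 3 mice per regimen, 9 mice and 18 libraries in all, so each p-value below rests on 3 mice per group. The injections of the weekly mice were fewer than those of the daily and the vehicle mice, so regimen and number of injections cannot be told apart. Sequencing depth cannot be read from TPM, and the errors given are those between mice. In bulk tissue, fewer cells of a type and less RNA per cell cannot be told apart.

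The cytosolic ribosome has a small subunit, which reads the mRNA, and a large subunit, which joins the amino acids. Both are made of ribosomal RNA and of one copy each of most ribosomal proteins, so the genes of these proteins are usually expressed in step. Their mRNAs begin with a run of pyrimidines (the 5′ terminal oligopyrimidine tract), through which mTOR and the protein LARP1 control their translation, and glucocorticoids are known to lower protein synthesis in skeletal muscle. Several ribosomal proteins have paralogs that replace them in some tissues, among them RPL3L, which takes the place of RPL3 in striated muscle. Ribosomal protein mRNAs have also left many intronless copies in the genome, so that a short read may match both a gene and its copies.

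The sequences below show how closely some of these genes resemble each other. They are stretches of coding sequence from the GRCm38 reference genome with the GENCODE M21 annotation, numbered from the first base of the start codon, with capitals at the positions where the aligned pair differs. The first stretch, bases 1 to 60 of Rps12 (chromosome 10, 23785183 to 23787275, minus strand), has no capitals because its copy Rps12-ps3 (chromosome 19, 59322290 to 59322783, plus strand) was identical to it, as was Rps12l1 (chromosome 7, 56014016 to 56014414, plus strand), over all 399 bases.

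Rps12: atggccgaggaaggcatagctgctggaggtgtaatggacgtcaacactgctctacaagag

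The next pair is Rps18 (chromosome 17, 33951999 to 33956001, minus strand) and its copy Gm10260 (chromosome 13, 97760072 to 97760632, minus strand), bases 312 to 371, with 2 differences in this stretch and 4 over all 459 bases (99.13% identity).

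Rps18: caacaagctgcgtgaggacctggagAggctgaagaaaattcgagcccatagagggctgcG

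Gm10260: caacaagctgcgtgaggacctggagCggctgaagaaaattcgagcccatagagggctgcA

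A true paralog pair looks different. Rpl3 (chromosome 15, 80077791 to 80091868, minus strand) and Rpl3l (chromosome 17, 24727820 to 24736143, plus strand) had 25 differences in bases 163 to 222 and were identical at 896 of 1210 aligned bases (74.05%), so that reads of one can be told from reads of the other.

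Rpl3: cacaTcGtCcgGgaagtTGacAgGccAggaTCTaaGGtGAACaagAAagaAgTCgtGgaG

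Rpl3l: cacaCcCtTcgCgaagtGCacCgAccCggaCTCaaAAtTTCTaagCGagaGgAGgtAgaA

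Rps27rt was likewise identical to Rps27 over all 255 coding bases, whereas identity was 76.08% for Rps27l with Rps27, 87.85% for Rpl36al with Rpl36a, 69.4% for Rpl22l1 with Rpl22 and 55.46% for Rpl7l1 with Rpl7. To see how much signal lay on such copies, the coding sequence of 84 members was aligned to all transcripts of the annotation, and a transcript with at least 95% identity over at least 80% of the coding sequence was taken as a copy. The members fell into 84 families, 76 of which had a copy outside the members, 506 copy genes in all.

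Ribosomal protein genes made up 3.19% to 3.78% of TPM in muscle libraries, and 5.15% to 6.69% of TPM in adipose libraries. In muscle the 88 members together held 3.33%, 3.19% and 3.22% of TPM after weekly prednisone, 3.78%, 3.29% and 3.41% after daily prednisone, and 3.78%, 3.46% and 3.51% after vehicle. The 3 weekly values lay below the 3 vehicle values, and the daily values overlapped both. In adipose tissue the share was 5.15%, 5.43% and 5.48% after weekly prednisone, 5.70%, 5.69% and 5.51% after daily prednisone, and 6.69%, 5.71% and 5.94% after vehicle. Both regimens lay below all vehicle libraries, but daily prednisone only by 5.70% against 5.71%. As a share of nuclear genes only, daily and vehicle libraries overlapped (6.61% to 6.86% and 6.56% to 7.74%). They also overlapped with the top transcript only and with -ps symbols added, while weekly libraries stayed below vehicle in these versions. The first vehicle library stood above the other 2 by more than they differed from each other. With all copies added, the share averaged 4.28% ± 0.093, 4.61% ± 0.35 and 4.72% ± 0.23 in muscle after weekly, daily and vehicle treatment, and 7.09% ± 0.25, 7.48% ± 0.16 and 8.18% ± 0.69 in adipose tissue (SD, n = 3 each). The first vehicle library of adipose tissue also had the highest sum of 5 red cell markers, 9097 TPM against 5135 and 6386 TPM in the other vehicle libraries, and their part in its share was not tested. Genes of the mitochondrial genome held 27.5% to 31.3% of muscle TPM, against 12.9% to 16.9% of adipose TPM, and enter the same fixed sum. A sum over members gets no test here.

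**Figure D1:**
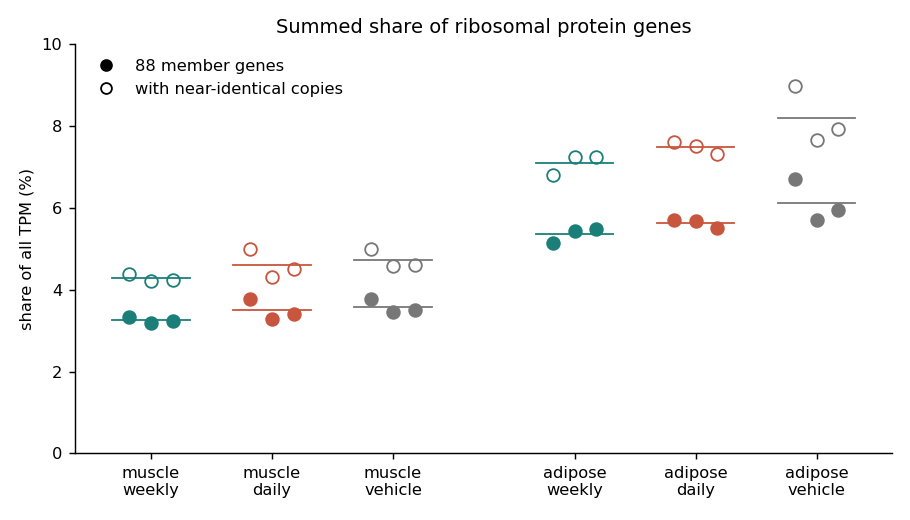
Each point is the summed share of ribosomal protein genes in all TPM of 1 library (percent, y axis), by tissue and regimen (x axis); filled points are the 88 members, open points the members with their near-identical copies, and lines the means of 3 libraries. Weekly libraries lie below vehicle libraries in both tissues, and the first vehicle library of adipose tissue is the highest at 6.69%.

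Most members were abundant. Their mean over the 9 libraries of a tissue had a median of 344 TPM in muscle and 559 TPM in adipose tissue. In muscle the highest were Rplp1 (1520.2 ± 145 TPM, SD of 9 libraries), an acidic protein of the stalk that recruits translation factors, Rps27 (1352 ± 56.7 TPM) and Rpl41 (1222 ± 109 TPM), the smallest ribosomal protein. The same 3 genes were highest in adipose tissue in another order, Rpl41 at 3558 ± 521 TPM, Rplp1 at 2382 ± 263 TPM and Rps27 at 1867 ± 193 TPM. The lowest in muscle were Rps4l (3.28 ± 0.81 TPM), Rpl12 (9.08 ± 1.67 TPM) and Rps27rt (9.54 ± 12.2 TPM), and in adipose tissue Rpl3l (2.32 ± 1.74 TPM), Rps27rt (3.92 ± 4.25 TPM) and Rpl5 (22.9 ± 4.33 TPM). Between vehicle mice a member varied little, with a median coefficient of variation of 6.08% in muscle and 8.44% in adipose tissue over the 86 members with a vehicle mean of at least 5 TPM.

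Low values of core proteins went with high values of their copies. Rpl5 encodes a protein that carries 5S ribosomal RNA into the large subunit, yet it held 3.09% of its family's TPM in muscle, where the copy Gm15500 averaged 330.3 TPM. Rpl12 held 3.14% of its family in adipose tissue, where Gm10275 averaged 778 TPM. Members held under 50% of the family's TPM in 23 of 84 families in muscle and 23 in adipose tissue, and at least 95% in 52 and 50 families. The reads of a gene and of an identical copy cannot be told apart, so the level of a member in such a family is uncertain, and family sums are given beside the changes of such members.

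Paralog pairs differed in how they were divided between the tissues. Rpl3l had 461, 437 and 433 TPM in muscle of vehicle mice, against 1.23, 0.93 and 0.72 TPM in their adipose tissue. Rpl3 went the other way, with 14.2, 10.3 and 13.5 TPM in muscle against 73.0, 65.7 and 65.8 TPM in adipose tissue. No library of one tissue overlapped the other for either gene. Rpl3l was higher in muscle by a log2 fold change of 7.83 ± 0.22 (SE; limma adjusted p = 5.9e-10) and Rpl3 lower by -2.35 ± 0.13 (adjusted p = 3.1e-08, n = 3 mice, each giving both tissues), or -2.75 ± 0.095 for the Rpl3 family. Rpl3l made up 97.2% ± 0.41 of the TPM of this pair in muscle of vehicle mice and 1.38% ± 0.28 in adipose tissue, or 85.6% ± 0.87 and 0.19% ± 0.043 when the copies of Rpl3, mainly Rpl3-ps1, were added (SD, n = 3).

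Rps4l, a paralog of the X-linked small-subunit gene Rps4x that the annotation lists as a transcribed processed pseudogene, was weighted the other way, with 2.90, 4.40 and 4.19 TPM in muscle of vehicle mice against 69.4, 56.5 and 63.5 TPM in adipose tissue (log2 fold change -3.74 ± 0.13, limma adjusted p = 2.0e-09). It was 1.15% ± 0.27 of the pair with Rps4x in muscle and 7.68% ± 0.42 in adipose tissue. The sum of 10 adipocyte markers was 1651 to 2137 TPM in muscle of vehicle mice, against 40137 to 40961 TPM in their adipose tissue. The part of fat cells in the muscle value of Rps4l was not tested. The other pairs were closer between tissues. Rpl22l1 made up 35.4% ± 1.32 of its pair with Rpl22 in muscle and 27.6% ± 1.75 in adipose tissue of vehicle mice. Rps27l made up 15.2% ± 0.66 of its pair with Rps27 in muscle and 13.7% ± 0.64 in adipose tissue. Rpl36al made up 57.1% ± 0.37 of its pair with Rpl36a in muscle and 47.6% ± 1.24 in adipose tissue, but 40.1% ± 2.16 and 29.6% ± 1.58 when the copies of Rpl36a were added. Rpl7l1 made up 5.23% ± 0.064 and 6.74% ± 0.49 of its pair with Rpl7. Rpl39l and Rpl10l, known in the mouse as testis paralogs of Rpl39 and Rpl10, stayed below 1% of their pairs in every library.

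**Figure D2:**
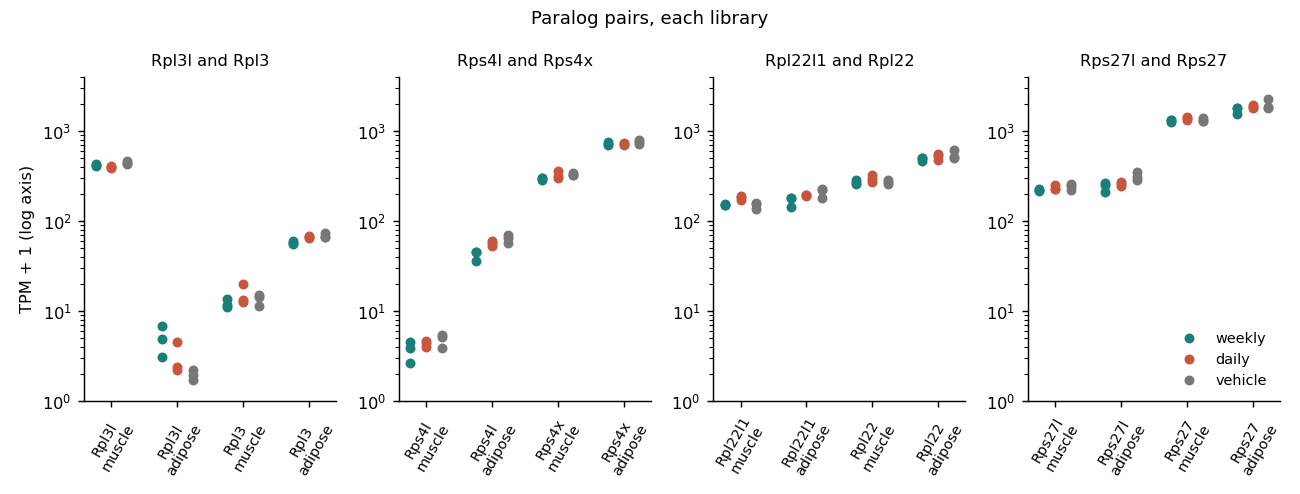
TPM + 1 (log y axis) of 4 paralog pairs in each library, by gene and tissue (x axis); colours give the regimen and each point is 1 library. Rpl3l and Rpl3 trade places between muscle and adipose tissue, Rps4l lies near 4 TPM in muscle and near 63 TPM in adipose tissue of vehicle mice, and Rpl22l1 and Rps27l average 149 and 240.4 TPM in muscle and 208 and 317 TPM in adipose tissue of vehicle mice.

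As a whole, the members were lower per TPM in muscle than in adipose tissue, but this direction depended on the scaling. Between the tissues of vehicle mice 1 member was called higher in muscle and 84 lower (limma, adjusted p below 0.05). Of all genes 86.7% were called, 13.0% higher and 73.7% lower. The 1 higher was Rpl3l, and Rpl10a and Rps27rt were among the 3 not called. The median log2 fold change, muscle minus adipose, was -0.74 for the members and -0.88 for all genes, so TPM of a typical gene was lower in muscle and the members sat slightly above that shift. With TMM scaling, which sets the middle of all genes near 0, the medians became 0.25 and -0.02, and 47 members were higher and 11 lower. The share of all genes called with that scaling is not given. Rpl3l, Rpl3, Rps4l and the other members named in this comparison kept their direction under both other scalings and their call without any one mouse. After these and Rps12l1, described below, the furthest below 0 were Rpl41 (-1.67 ± 0.083), Rps19bp1 (-1.46 ± 0.064), Rps19 (-1.44 ± 0.082), a small-subunit protein whose loss causes a failure of red cell production in humans, Rplp2 of the stalk (-1.37 ± 0.10) and Rpl12 (-1.36 ± 0.10). Rpl12 with its copies was at -0.66 ± 0.070 on the same scale. Rps12l1 was listed at 0 in all 3 muscle libraries of vehicle mice and at 326, 365 and 307 TPM in their adipose tissue, while the whole Rps12 family had 907, 869 and 889 TPM in muscle and 2075, 1760.1 and 1829 TPM in adipose tissue.

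**Figure D3:**
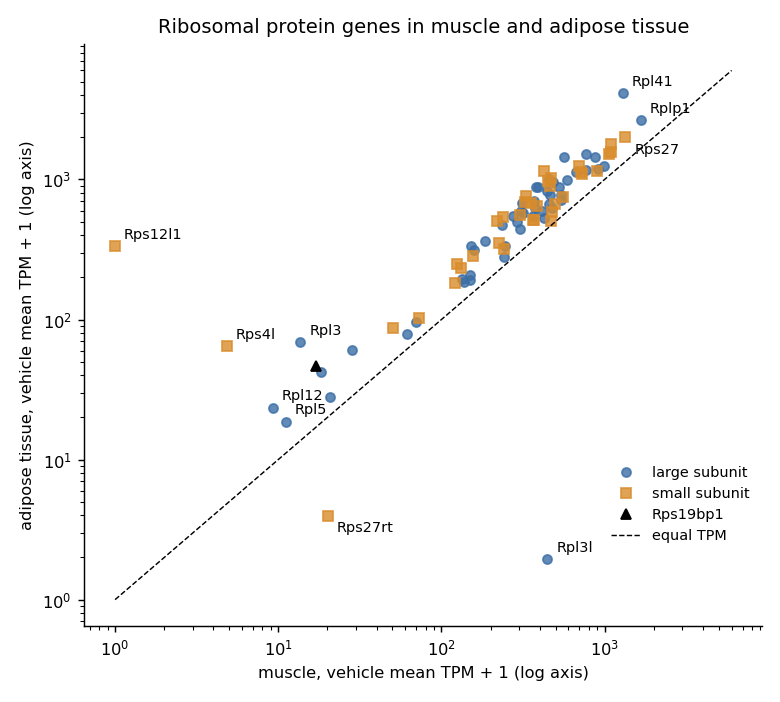
Mean TPM + 1 of each member in vehicle mice, in muscle (x axis) and adipose tissue (y axis), both on log axes; circles are large-subunit genes, squares small-subunit genes, the triangle is Rps19bp1, and the dashed line marks equal TPM. Most members lie above the line, Rpl3l and, less so, Rps27rt lie below it, and Rps12l1, Rps4l and Rpl3 lie far above it.

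A few ribosomal protein genes were called in muscle after daily prednisone, in both directions, and their share was near that of all genes. Of the 88 members 4 rose and 9 fell against vehicle (limma, adjusted p below 0.05), which is 14.8% of members, beside 13.7% of all 12246 genes tested (1.91% higher and 11.8% lower). The median log2 fold change was -0.03 for members and -0.09 for all genes, and it was below 0 for 53 members, against 68.4% of all genes. Daily and vehicle libraries did not overlap for 8 members that were higher (9.09%), against 6.02% of all genes, and for 12 that were lower (13.6%), against 27.8% of all genes. Small-subunit genes gave 2 rises and 4 falls among 36, and large-subunit genes 2 rises and 5 falls among 51. With TMM scaling, which moved the median of all genes to 0.01, the split was 10 rises and 0 falls, and with quantile normalization 15 rises and 1 fall, so the balance of rises and falls rests on the scaling. The shares of all genes called under these scalings are not given, so these counts do not set members apart from other genes. Among the 4 rises is Rps12l1, which was at 0 in every vehicle library and entered the test only through libraries where it was high. None of the member calls named below held in every run that left out 1 library. Without the second vehicle library or without the third daily library, 1 member was called. The share of all genes called in these runs is not given, so this count describes the members alone.

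Rpl22l1, Rpl15, Rpl30 and Rpl7l1 kept their call with the copies of the gene added. In muscle Rpl22l1, Rpl30 and Rpl7l1 held 97.98%, 98.06% and 100% of their families' TPM, so adding copies could hardly change them. Rpl15 held 39.6% of its family. With TMM and with quantile scaling Rpl22l1 kept its call, and Rpl15, Rpl30 and Rpl7l1 lost theirs. Of 9 runs without 1 library, these genes kept their calls in 6, 4, 2 and 2, in the same order. Rpl22l1, the paralog of the large-subunit gene Rpl22, had 187, 188 and 171 TPM after daily prednisone, against 158, 135 and 156 TPM after vehicle. All daily libraries lay above all vehicle libraries, and the log2 fold change was 0.28 ± 0.067 (SE; limma adjusted p = 0.024), or 0.27 ± 0.067 with its copy. Rpl22 itself had 329, 275 and 296 TPM after daily prednisone and 274, 261 and 283 TPM after vehicle, with overlap. Rpl15, a large-subunit protein, had 105, 99.1 and 106 TPM after daily prednisone, against 151, 146 and 114 TPM after vehicle (-0.40 ± 0.10, adjusted p = 0.034; -0.24 ± 0.065 for its family). Rpl30, a large-subunit protein, had 427, 338 and 388 TPM after daily prednisone and 494, 456 and 465 TPM after vehicle, without overlap (-0.30 ± 0.081, adjusted p = 0.038), but its most abundant transcript alone gave 0.14 ± 0.079. Rpl7l1, the paralog of Rpl7, had 14.3, 15.2 and 14.5 TPM after daily prednisone and 17.3, 17.4 and 17.3 TPM after vehicle (-0.23 ± 0.064, limma adjusted p = 0.046 with its copies).

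In some other called genes, the member and its main copy went in opposite directions. Rpl10a of the large subunit had 191, 153 and 149 TPM after daily prednisone, against 284, 240.0 and 199 TPM after vehicle (-0.55 ± 0.14, limma adjusted p = 0.036). Its copy Rpl10a-ps1 had 279, 225 and 255 TPM after daily prednisone, against 173, 136 and 191 TPM after vehicle (0.61 on the log2 scale, adjusted p = 0.015). Daily and vehicle libraries did not overlap for either, and the family sum had a log2 fold change of 0.03 ± 0.091 (adjusted p = 0.85).

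Rps6, the small-subunit protein phosphorylated by the S6 kinases, had 287, 250.4 and 284 TPM after daily prednisone, against 232, 240.4 and 238 TPM after vehicle (0.21 ± 0.057, adjusted p = 0.041). Its copy Rps6-ps4 fell (-0.63, adjusted p = 0.020), and the family was at -0.04 ± 0.058. So the sum was closer to 0 than either part in both families. Rps7, Rps18 and Rpl27a fell by 0.28, 0.34 and 0.69 on the log2 scale, but held 12.4%, 20.1% and 14.3% of their families in muscle, whose sums were not called (0.07 ± 0.066, -0.17 ± 0.086 and -0.18 ± 0.083). Rpl14 rose by 0.31 ± 0.088 and its family was at 0.12 ± 0.057, not called.

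Rps12l1, identical to Rps12 in the coding sequence shown above, was present in all daily libraries of muscle and in no vehicle library. It had 137, 154 and 207 TPM in muscle after daily prednisone, and 0 in all 3 vehicle libraries; of the weekly libraries it was at or near 0 in 2 and at 119.9 TPM in the third. No fold or p-value is given, because the vehicle libraries are listed at 0 and in muscle the gene met the membership threshold only through its daily and weekly libraries. Rps12 had 63.6, 53.6 and 59.1 TPM after daily prednisone and 72.4, 75.9 and 66.9 TPM after vehicle (-0.28 ± 0.079, limma adjusted p = 0.044). The family of Rps12, Rps12l1 and their copies had 1089.6, 886.8 and 961 TPM after daily prednisone and 907, 869 and 889 TPM after vehicle, a log2 fold change of 0.14 ± 0.071 that was not called (adjusted p = 0.24). Rps27rt, identical to Rps27 in its coding sequence, was not called and had 0, 0 and 3.71 TPM after daily prednisone, against 38.2, 16.6 and 2.48 TPM after vehicle, while Rps27 had 1456, 1339 and 1401 TPM after daily prednisone and 1317, 1302 and 1399 TPM after vehicle. With all copies added, 2 of 84 families rose (Rpl22l1 and Rpl27) and 4 fell (Rpl15, Rpl30, Rpl7l1 and Rpl8). No share of all genes called is given for that fit. Without copies added it was 1.91% higher and 11.8% lower. The Rpl27 family rose by 0.20 although Rpl27 itself, 3.66% of it, was at -0.31 and not called.

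**Figure D4:**
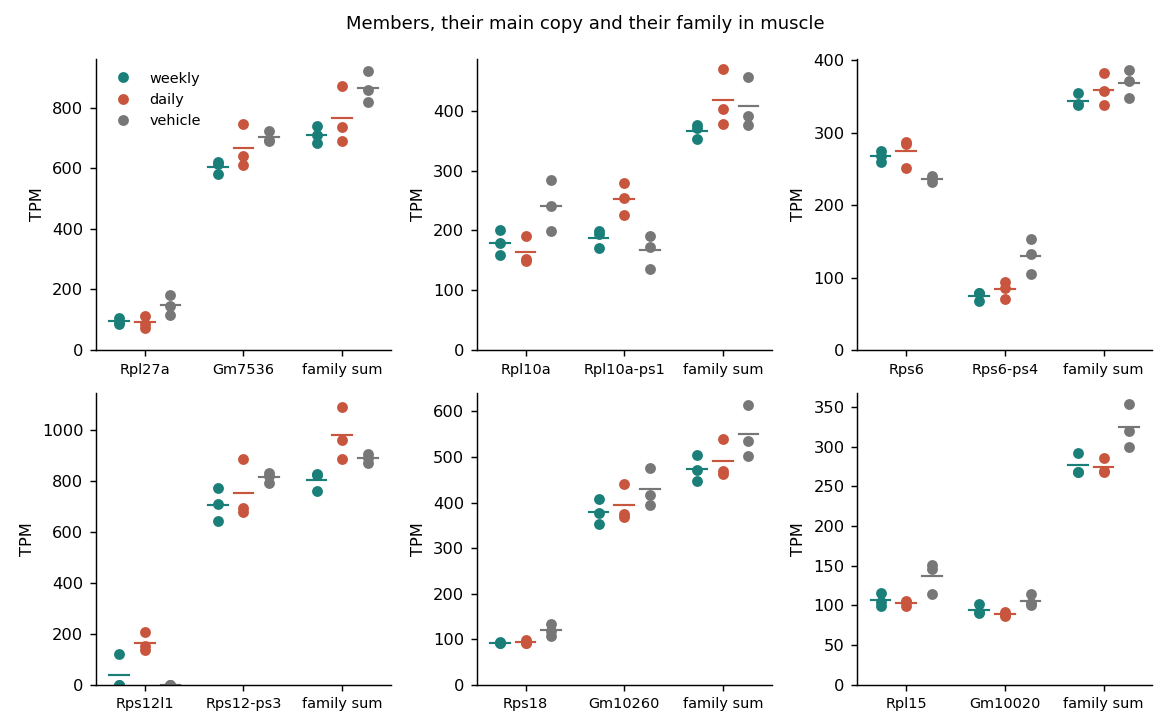
TPM in muscle (y axis, each from 0) of 6 members, their most abundant copy in muscle and their whole family (x axis); points are libraries, short lines means of 3, and colours give the regimen. For Rpl10a the member is lower and the copy higher after daily prednisone than after vehicle, for Rps6 the reverse, and the family sums of both overlap between daily and vehicle libraries.

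The ratio of large-subunit to small-subunit TPM in muscle showed the same dependence on the copies. It was 1.28 to 1.29 after daily prednisone, 1.29 to 1.31 after weekly prednisone and 1.31 to 1.33 after vehicle, with both regimens below all vehicle libraries. With the copies added it was 1.24 to 1.26 after daily prednisone, 1.24 to 1.25 after weekly prednisone and 1.24 to 1.26 after vehicle.

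Markers of other cells moved with daily prednisone in muscle. The summed TPM of 9 measured markers of immature or regenerating muscle was 139 to 224 after daily prednisone, 21.2 to 29.0 after weekly prednisone and 31.6 to 37.2 after vehicle. All 9 had at least 1 TPM in each daily library, while 4 were below it in each weekly library and 1 to 4 in the vehicle libraries. For 10 macrophage markers it was 323 to 493 after daily prednisone, 160.4 to 168 after weekly prednisone and 152 to 222 after vehicle. Their part in the changes of ribosomal protein genes was not tested.

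Weekly prednisone gave no called member in muscle, although most members lay below vehicle. By limma 0 of 88 members passed, beside 0.049% of all genes, while 38 members (43.2%) had an unadjusted p below 0.05, against 15.4% of all genes. Of these 37 were lower (42.0%), against 13.3% of all genes. The log2 fold change was below 0 for 78 of 88 members, against 70.5% of all genes. The 3 weekly libraries lay below all 3 vehicle libraries for 47 members (53.4%), against 19.3% of all genes. The median was -0.14 for members and -0.07 for all genes, and with TMM scaling -0.07 and -0.003. Rps12 and Rps18 were among the 3 members with the smallest p-values, all uncalled. Rps18 had 91.8, 93.1 and 92.2 TPM after weekly prednisone and 133, 118 and 107 TPM after vehicle (-0.36 ± 0.075, limma adjusted p = 0.12). Its family had 504.6, 471 and 447 TPM after weekly prednisone and 614, 536 and 503 TPM after vehicle, with overlap (-0.21 ± 0.086, adjusted p = 0.29). Without the first vehicle library, 17 members had an unadjusted p below 0.05, and the share of all genes in that run is not given.

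Between the regimens in muscle, weekly against daily, 0 members were called by limma, beside 1.77% of all genes, and 22 had an unadjusted p below 0.05, against 17.4% of all genes. The log2 fold change was below 0 for 79 of 88 members, against 41.8% of all genes, and weekly libraries lay below all daily libraries for 23 members (26.1%), against 8.58%. It had a median of -0.11 for members and 0.03 for all genes. Rplp2 came closest, with 494, 518 and 539 TPM after weekly prednisone, against 647, 563 and 604 TPM after daily prednisone, without overlap (-0.22 ± 0.058, adjusted p = 0.090). Rpl22l1, at 151, 155 and 152 TPM after weekly prednisone, was lower than after daily prednisone by -0.25 ± 0.067 (adjusted p = 0.0997), and Rpl13 was at -0.18 ± 0.052 (adjusted p = 0.12). With quantile normalization 1 member was called lower, and the share of all genes called with it is not given.

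Some ribosomal protein genes were lower in adipose tissue after weekly prednisone, where most called genes were higher. Against vehicle 3 members rose and 7 fell (limma, adjusted p below 0.05), 11.4% of members, beside 7.43% of all 14150 genes tested (5.72% higher and 1.72% lower). Among the 3 rises is Rpl3l, which passed the filter of 1 TPM in 3 or more libraries only with libraries of treated mice. The median log2 fold change was -0.15 for members and 0.13 for all genes, and it was below 0 for 78 members, against 29.7% of all genes. The weekly libraries lay below all vehicle libraries for 45 members (51.1%), against 7.88% of all genes, and above them for 3 members, against 27.6% of all genes. With TMM scaling, which moved the median of all genes to 0.01, the members' median was -0.28 with 1 rise and 8 falls, and with quantile normalization it was -0.06 with 1 rise and 3 falls. For these scalings no share of all genes called is given. All 10 calls were lost when some library was left out: without the third weekly or the third vehicle library 0 members were called, and without the first vehicle library, the one with the high summed share, 1 was called and the members' median was -0.09. For these runs too, no share of all genes called is given, so the counts describe the members alone.

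The falls of Rps21, Rps14, Rps27l, Rps4l, Rpl41 and Rpl18 kept their call with the copies added. Each of these genes held 99.06% or more of its family's TPM in adipose tissue, so adding copies could hardly change them. Rps21, a small-subunit protein, had 749, 924 and 949 TPM after weekly prednisone, against 1391, 1164 and 1194 TPM after vehicle (-0.52 ± 0.10, limma adjusted p = 0.025). The daily libraries had 1047, 968 and 902 TPM, also below every vehicle library (-0.36 ± 0.10, adjusted p = 0.33, not called). Rps27l, a paralog of Rps27 that p53 activates, had 210.5, 262 and 253 TPM after weekly prednisone and 349.8, 288 and 313 TPM after vehicle (-0.39 ± 0.096, adjusted p = 0.043). Rps4l had 35.1, 44.5 and 44.6 TPM after weekly prednisone, 59.8, 52.6 and 56.1 TPM after daily prednisone and 69.4, 56.5 and 63.5 TPM after vehicle, with no overlap of weekly and vehicle libraries (-0.60 ± 0.11, limma adjusted p = 0.020). Rpl41 had 2669, 3418 and 3348 TPM after weekly prednisone and 4511, 3832 and 4045 TPM after vehicle (-0.40 ± 0.099). Rps14, a small-subunit gene on chromosome 18, fell by 0.37 on the log2 scale, and Rpl18 fell by 0.26.

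Rpl3 also fell, with 54.7, 56.3 and 59.5 TPM after weekly prednisone and 73.0, 65.7 and 65.8 TPM after vehicle (-0.26 ± 0.067, limma adjusted p = 0.047), but it held 12.8% of its family, which was at -0.08 ± 0.063 and not called. Rpl5 had 26.3, 24.7 and 26.8 TPM after weekly prednisone, 27.9, 21.9 and 25.6 TPM after daily prednisone and 18.8, 16.1 and 18.1 TPM after vehicle. Both regimens lay above all vehicle libraries (weekly 0.53 ± 0.10, adjusted p = 0.022; daily 0.48 ± 0.10, adjusted p = 0.26), while the family, of which Rpl5 held 3.62%, was at 0.08 ± 0.066 for weekly and 0.01 ± 0.066 for daily prednisone. Rpl12 rose (0.36 ± 0.096, adjusted p = 0.0496) and its family was at -0.17 ± 0.065, not called. With all copies added, 8 of 84 families fell, Rpl27a and Rps16 besides the 6 above. The 1 that rose was Rpl3l, which passed the filter only with libraries of treated mice. No share of all genes called is given for that fit. Without copies added it was 5.72% higher and 1.72% lower.

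Rpl3l in adipose tissue was highest in the libraries with the most muscle transcripts. It had 2.07, 5.85 and 3.87 TPM after weekly prednisone, 1.37, 3.58 and 1.22 TPM after daily prednisone and 1.23, 0.93 and 0.72 TPM after vehicle. Rpl3l was called as a rise for weekly against vehicle, but it passed the filter of 1 TPM only with libraries of treated mice. No fold or p-value is given for that reason. The 3 libraries with the highest Rpl3l were also those with over 100 TPM of Ckm, the creatine kinase of muscle: 176 and 130.4 TPM in the second and the third weekly library and 109 TPM in the second daily library. The summed TPM of 12 muscle fibre markers ranged over 185 to 1563 after weekly prednisone, 166 to 984 after daily prednisone and 159 to 257 after vehicle. Leaving out the 3 libraries with over 100 TPM of Ckm leaves weekly prednisone 1 library, assumed to vary like the other groups. Rpl3l was then no longer called, and the members' median was -0.23. The weekly library that remained had the lowest summed share of the members among adipose libraries, 5.15%. It also had the highest endothelial and fibroblast sums, 357 and 2518 TPM, so the weekly side of this median rests on that library. Markers of other cells also moved with weekly prednisone in adipose tissue, with 257 to 357 TPM for 6 endothelial markers and 1984 to 2518 TPM for 6 fibroblast markers, against 224 to 237 TPM and 1704 to 1743 TPM after vehicle. Macrophage markers summed to 2221 to 2454 TPM after weekly prednisone, 2217 to 2258 TPM after daily prednisone and 1651 to 2195 TPM after vehicle. The sum of 10 adipocyte markers was 38617 to 39516 TPM after weekly prednisone, 36843 to 39779 TPM after daily prednisone and 40137 to 40961 TPM after vehicle. Their part in the changes of the members was not tested.

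Daily prednisone in adipose tissue gave 0 called members by limma, beside 0.00707% of all genes, and 9 members (10.2%) had an unadjusted p below 0.05, against 9.22% of all genes. The median log2 fold change was -0.09 for members and 0.01 for all genes, and 74 members lay below 0, against 48.3% of all genes. Without the first vehicle library the median was -0.03. Weekly against daily prednisone gave 0 called members, beside 0.311% of all genes, with 4 (4.55%) at an unadjusted p below 0.05, against 15.8% of all genes. The median was -0.08 for members and 0.12 for all genes, and 72 members lay below 0, against 25.7% of all genes. The smallest p-values there were those of Rps4l (-0.44 ± 0.11, limma adjusted p = 0.15), Rpl3 (-0.21 ± 0.067) and Rps27a (-0.19 ± 0.061), whose product is made as a fusion with ubiquitin. The Rpl3 family was at -0.07 ± 0.063, with overlap, and the Rps27a family at -0.13 ± 0.065.

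**Figure D5:**
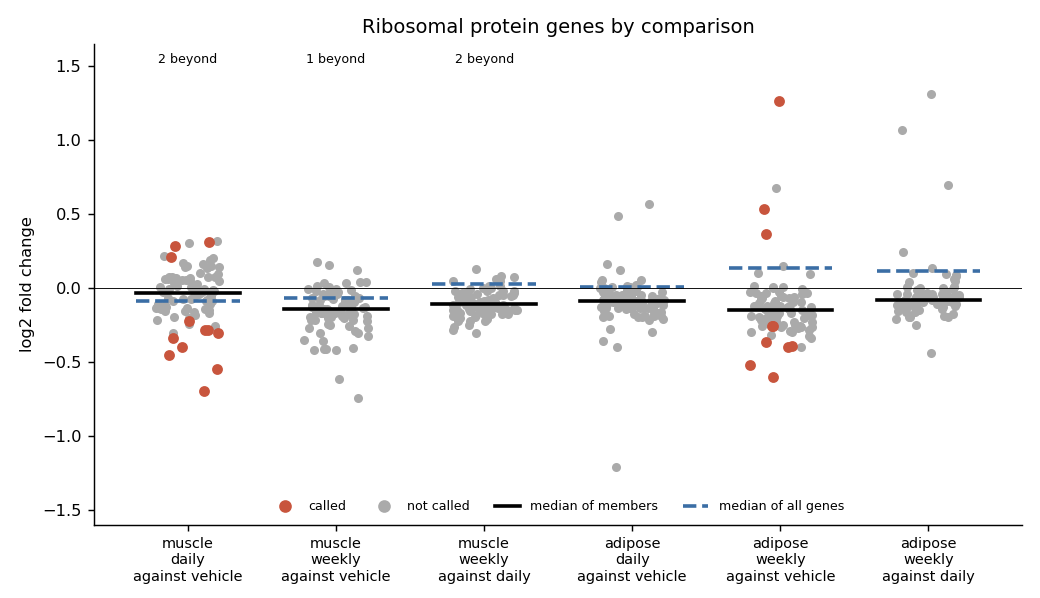
Log2 fold change (y axis) of each member in the 6 comparisons (x axis); each point is a gene, red where called, with the median of members as a black bar and the median of all genes as a dashed blue bar, and members beyond either end of the axis counted at the top. The median of members lies below that of all genes in each comparison except daily against vehicle in muscle, where their median is -0.03 and that of all genes -0.09.

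The effect of a regimen was not shown to differ between the tissues for any member. The difference of the daily effect, muscle minus adipose, gave 0 called members by limma, beside 0.0596% of all genes, with 14 (15.9%) at an unadjusted p below 0.05, against 14.1% of all genes. That of the weekly effect gave 0, beside 2.56% of all genes, with 10 (11.4%) at that level, against 27.6%. Rps12l1 is among the 14 but is not ranked, because it was at 0 in all 3 muscle libraries of vehicle mice. Of the other members, the smallest p-values were those of Rpl27a and Rpl22l1 for daily prednisone. For weekly prednisone they were those of Rpl3l, Rps18 and Rpl22l1, of which Rpl3l passed the filter in adipose tissue only with libraries of treated mice. Rpl22l1 had a difference of 0.38 ± 0.098 on the log2 scale for the daily effect (adjusted p = 0.15) and 0.33 ± 0.098 for the weekly effect (adjusted p = 0.080), for 3 mice per group.

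Other genes of the ribosome pathway were counted in the same fits. Of 18 measured genes of elongation factors and other mRNAs with the pyrimidine tract, 2 rose and 3 fell in muscle after daily prednisone (beside 1.91% of all genes higher and 11.8% lower), with a median of -0.04. Tpt1, a growth-related protein, had 3057, 3097 and 3089 TPM after daily prednisone, against 2441, 2183 and 2473 TPM after vehicle (0.38 ± 0.052, adjusted p = 0.0036). The elongation factors Eef1a2 and Eef2 fell by 0.33 and 0.30 on the log2 scale (adjusted p = 0.0057 and 0.0071), and Eef1a2 was not called with quantile normalization. In the other 5 comparisons of regimens, 0 of the 18 were called.

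Elongation factor 1A divided between the tissues in the way of Rpl3l and Rpl3. Eef1a2, the form of muscle and nerve, had 814 ± 26.8 TPM in muscle and 0.80 ± 0.29 TPM in adipose tissue of vehicle mice, and Eef1a1 had 459 ± 30.4 TPM in muscle and 3434 ± 81.2 TPM in adipose tissue (SD, n = 3). Both differences passed the test (8.83 ± 0.39 and -2.90 ± 0.085 on the log2 scale, limma adjusted p = 7.4e-09 and 6.9e-10), also with TMM scaling; Eef1a2 was chosen for this after its values were seen.

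Genes of ribosome production were counted in the same way. Of 15 genes of RNA polymerase I and its factors, 0 were called in any of the 6 regimen comparisons by limma, and their median in muscle after daily prednisone was -0.09, as for all genes. Of 60 measured ribosome assembly genes, 1 rose and 3 fell in muscle after daily prednisone, against 13.7% of all genes called, and 0 were called in the other 5. The rise was of Nop58, a core protein of the small nucleolar particles that modify ribosomal RNA (17.9 ± 1.33 TPM after daily prednisone, 13.7 ± 1.01 TPM after vehicle, adjusted p = 0.039), and among the falls were Ltv1 and Bysl, assembly factors of the small subunit. Leaving out 1 library in turn, Nop58 kept its call in 2 of 9 runs, Ltv1 in 3 and Bysl in 0, and with TMM or quantile scaling Ltv1 and Bysl were not called. Of 15 tested genes of growth control, 1 rose and 2 fell in muscle after daily prednisone, beside 1.91% of all genes higher and 11.8% lower. Myc, a transcription factor that drives ribosome production, rose (3.07 ± 0.25 TPM after daily prednisone, 1.75 ± 0.18 TPM after vehicle, adjusted p = 0.012). Its call held in 8 of 9 runs without 1 library and was lost with the top transcript only. Eif4ebp2, a repressor of translation under mTOR, fell (33.4 ± 2.08 TPM against 45.0 ± 1.36 TPM after vehicle, adjusted p = 0.0039), as did Larp1 (17.6 ± 0.91 TPM against 20.9 ± 0.17 TPM after vehicle, adjusted p = 0.039), all by limma with n = 3 mice per group. In adipose tissue after weekly prednisone Larp4 rose, and in muscle after weekly against daily prednisone Eif4ebp2 was higher, each 1 of 15, beside 7.43% and 1.77% of all genes called. Of 9 runs without 1 library, Larp1 kept its call in 3, Larp4 and this call of Eif4ebp2 in 2 each, and all 3 calls were lost with TMM and with quantile scaling.

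Some of these genes hold a pyrimidine run near their start in the reference sequence. The letters CTTTCC were looked for on both strands in the 50 bases before and the 50 bases after the annotated start of each gene in RefSeq promoters of build GRCm38.p6. Of 65 members found there, 20 held them on the strand of the gene (30.77%) and 22 on either strand (33.85%), against 5.432% and 10.28% of all 27025 genes. A match is a description of these letters, and a window without them says nothing of other pyrimidine runs. Below are 30 bases around the start of 4 members chosen because they hold the letters, in capitals, and of Rpl3l, which does not hold them in the stretch shown. Rpl28 is at chr7:4792950-4792979 (plus strand), Rps10 at chr17:27635230-27635259 (minus), Rpl35 at chr2:39005117-39005146 (minus), Rpl15 at chr14:18270972-18271001 (minus) and Rpl3l at chr17:24727811-24727840 (plus).

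Rpl28: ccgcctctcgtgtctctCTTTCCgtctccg

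Rps10: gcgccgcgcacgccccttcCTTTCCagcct

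Rpl35: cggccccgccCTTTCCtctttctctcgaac

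Rpl15: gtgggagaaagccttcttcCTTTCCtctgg

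Rpl3l: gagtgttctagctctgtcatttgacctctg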

How the data were processed

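RNA-seq values of 9 muscle and 9 adipose libraries were used, 3 mice per regimen and tissue. The authors deposited TPM for 105129 transcripts with their gene symbols, and 0 columns belonged to no sample. Per the submitters' processing notes, Trimmomatic, HISAT2 and kallisto were used with mm10, with no version or role given; the transcript annotation is not given in the sources used here. Per the labels' protocols, libraries were stranded mRNA libraries made from Trizol and RNeasy extracts. TPM keeps no read counts, so depth is unknown and only the spread between mice gives the error. The design text names fewer adipose libraries of daily mice than the 3 that the labels and the table hold.

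TPM were summed per symbol. Genes reaching 1 TPM in 3 or more libraries of the tissue entered the fit as log2(TPM + 1), a scale that understates the change of low genes, with limma 3.58.1 in R 4.3.3 (eBayes with a trend, 3 regimens in 1 fit per tissue, SE from the fit). Benjamini-Hochberg adjustment ran over all genes, and a gene was called at 0.05. Tissues were compared within each mouse. All 88 members passed this filter in both tissues. Copies were found with blastn 2.17.0 in GENCODE M21, which held 98.6% of the transcripts by ID; hits also had to be covered over at least 50% of their length. The tests were run on simulated data with planted changes larger than most regimen changes of members given here, so finding smaller ones was not checked. Alternatives were other scalings, pseudocounts, filters, transcript choices, a replicate block and left-out libraries; adding copies by sequence was chosen after seeing the data. Replicates are separate mice per the labels.

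The members and the gene lists were chosen with earlier results of these data known. Members are named from a panel of paralogs, stalk proteins and well-known members, the 8 largest rises and falls called in a comparison, the 3 smallest p-values where under 3 members were called, and the 3 highest and lowest levels per tissue; families and copies are named beside them. Some genes that this rule or the lists hold are not reported here.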

Additional observations from a re-analysis of the deposited data

How the results depend on the processing

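Counts of called members depended on single libraries in both comparisons with calls. The shares of all genes called under the settings below are not given, so these counts describe the members alone. Leaving out 1 library at a time gave 1 to 15 in muscle for daily against vehicle (13 with all libraries) and 0 to 13 in adipose tissue for weekly against vehicle (10), and 0 to 2 in muscle for weekly against daily (0), 84 to 87 between tissues (85) and 0 to 1 for the tissue difference of the weekly effect (0). It gave 0 throughout for weekly against vehicle in muscle, for both other adipose comparisons and for the tissue difference of the daily effect. Without the third library of each group the counts were 2, 0 and 1 in these first 3. Adipose weekly against vehicle gave 4 with quantile normalization, 1 without a filter, 16 with the filter at 5 TPM, and 3 with the top transcript only. Muscle daily against vehicle gave 4 without a filter and 6 with copies by sequence added. Quantile normalization called 1 member in muscle for weekly against daily. More or fewer genes tested changes the adjustment in the filters; other causes were not tested.

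Replicate numbers do not pair mice across regimens: the residuals of equally numbered mice had a median correlation of -0.03 for muscle and 0.03 for adipose tissue. With the number as a replicate block, 18 members were called in muscle for daily against vehicle, 4 in adipose tissue for weekly against vehicle and 0 in the other regimen comparisons. Without matching tissues by mouse (no replicate block), 1 member was called for the tissue difference of the weekly effect and 85 between tissues.

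The members' share averaged 3.44% of TPM in muscle and 5.70% in adipose tissue. It was 4.85% and 6.68% of nuclear genes only, 2.89% and 4.75% with the top transcript only, 3.94% and 6.59% with -ps symbols added, and 4.54% and 7.58% with all copies added. Of the log2 fold changes of named genes under alternatives, 1230 kept direction and side of the threshold, 335 lost the call, 5 gained one, 14 changed sign, and no sign changed under TMM or quantile scaling. In muscle for daily against vehicle, the top transcript alone gave 0.24 for Rpl27a, 0.14 for Rpl30, 0.064 for Rps18 and 0.0079 for Ltv1. With -ps symbols added, Rpl10a was at 0.032 and Rps6 at -0.038. With all copies added, Rpl10a was at 0.033, Rps6 at -0.036, Rps12 at 0.14 and Rps7 at 0.067, and in adipose tissue for weekly against vehicle Rpl12 at -0.17. The top transcript alone gave 0.20 for Rpl27a in the tissue difference of the daily effect (0.024 with copies added) and 0.052 for Rps18 in that of the weekly effect. Without read counts, no limit of detection can be given.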
